A study of Mus musculus with 10 samples.

Results

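The regions described here are the 300 widest of the 5327 merged regions that the study's authors listed as differing in chromatin accessibility between atrial cardiomyocyte nuclei of control and Prrx1(R1A)-/- mice. They were chosen by width alone, the end minus the start of the merged region, with ties in width settled by the higher sum of reads over the 10 libraries. They made up 5.63% of the listed regions and 16.0% of the listed base pairs, 690.5 kb in all. Widths ran from 1500 to 16000 bp with a median of 1750 bp, against a median of 750 bp for the other 5027 regions. Every listed region had already been selected on the same animals for a difference between the groups, so the values below describe the regions and test nothing.

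Both groups were mice of 8 to 12 weeks. The control group had 4 animals, whose genotype the labels give only as control, and the other group had 4 animals homozygous for the Prrx1(R1A) allele, called R1A-deleted here. Left and right atria of an animal were pooled, and nuclei carrying PCM1, a protein of cardiomyocyte nuclei, were sorted before tagging with a transposase that cuts accessible DNA. The series title concerns a noncoding region that regulates Prrx1, a homeobox transcription factor gene, and neither the bounds of the allele nor the animals' sex are given in the sources used here. Controls 1 and 3 each had a repeat library, and repeat libraries were summed per animal.

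Accessible chromatin usually takes the form of short stretches at promoters and enhancers, where bound proteins displace nucleosomes. Wider accessible stretches occur where many such elements lie side by side, as at genes that set a cell's identity, and over the bodies of short genes that are transcribed at a high rate. In atrial cardiomyocytes such genes encode natriuretic peptides, calcium cycling proteins and contractile proteins. The width of a merged region in the deposited table was read here as a width of change, from joined 500 bp bins, and not as the width of a peak. How the bins were merged is not given in the sources used here, so whether every bin inside a region differed is not known. Each merged region carries read counts for 1 bin of 500 bp only. That bin made up between 3.125% and 33.3% of the member regions, with a median of 28.6%, so a count here samples the region and does not sum over it. The bin can also lie outside a gene that its region overlaps. A protein-coding gene was overlapped by 208 member regions, and by the bin alone in 192.

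A wide region can take in a whole promoter. The promoter windows of Bmp10, Txnip and Tpm1, from 250 bases before to 50 bases after the RefSeq start site of assembly GRCm38.p6, each lay wholly inside a member. These 3 were taken by a rule. It asked for genes of the widest, most changed or highest-control regions whose promoter window lay wholly inside a member. Bmp10 encodes a growth factor of atrial myocytes, Txnip a protein that restrains glucose uptake, and Tpm1 the tropomyosin of the thin filament. Capitals mark matches on either strand to TATAAA, to CCAAT, to the E-box CACGTG and to ACANNNTGT, the spaced half-sites to which glucocorticoid and related steroid receptors bind. The Bmp10 window is chr6:87428744-87429043 on the plus strand, in a region that was lower in R1A-deleted animals.
Bmp10: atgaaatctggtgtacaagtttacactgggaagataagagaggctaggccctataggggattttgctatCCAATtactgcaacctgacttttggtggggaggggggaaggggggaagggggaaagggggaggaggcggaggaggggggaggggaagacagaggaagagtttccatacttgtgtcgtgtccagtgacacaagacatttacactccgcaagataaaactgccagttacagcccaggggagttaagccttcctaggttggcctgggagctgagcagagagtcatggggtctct
The Txnip window is chr3:96557707-96558006 on the plus strand, in a region that was higher.
Txnip: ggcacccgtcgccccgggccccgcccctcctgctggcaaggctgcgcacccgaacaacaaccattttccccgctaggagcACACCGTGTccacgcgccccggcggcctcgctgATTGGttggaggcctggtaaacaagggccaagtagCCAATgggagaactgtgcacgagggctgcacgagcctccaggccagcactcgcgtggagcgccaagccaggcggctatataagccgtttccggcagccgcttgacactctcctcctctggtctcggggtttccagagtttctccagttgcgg
The Tpm1 window is chr9:67049164-67049463 on the minus strand, in a region that was lower.
Tpm1: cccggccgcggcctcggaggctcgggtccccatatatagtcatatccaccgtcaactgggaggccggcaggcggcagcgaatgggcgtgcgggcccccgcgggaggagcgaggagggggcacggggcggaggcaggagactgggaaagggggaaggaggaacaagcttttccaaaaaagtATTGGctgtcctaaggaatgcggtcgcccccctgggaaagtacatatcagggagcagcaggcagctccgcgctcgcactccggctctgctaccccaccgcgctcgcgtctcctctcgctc

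Counted from 1 at the 5′ end of each window, the Bmp10 window held CCAAT at 70. The Txnip window held CCAAT at 149, its reverse complement at 114 and ACANNNTGT at 81. The Tpm1 window held the reverse complement of CCAAT at 181. None of the 3 windows held TATAAA or CACGTG. Among the 32851 promoter windows of the RefSeq table, 37.4% held CCAAT, 13.6% TATAAA, 7.15% CACGTG and 6.85% ACANNNTGT on either strand. No counted bin touched these windows, so the reads given below are not those of the promoters. A match of letters is a description and shows no binding.

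Reads in the listed bins ranged from 151976 to 736607 per animal, and these totals are not the sequencing depth. The member bins held from 12763 reads in control 2 to 65073 in control 3, which was 8.19 to 8.87% of each animal's reads in listed bins. Because these totals differed this much, reads were divided by a factor per library, with the difference between groups set by the authors' own fold changes, and the results are called scaled reads. On that scale the median over the 190 higher members was 59.9, 49.4, 58.7 and 59.8 scaled reads in controls 1 to 4, and 157, 141, 142 and 130 in R1A-deleted animals 1 to 4. Over the 110 lower members it was 121, 122, 131 and 114 in controls and 54.8, 58.1, 53.4 and 56.7 in R1A-deleted animals. The factors were median ratios within a group, which by itself brings the medians of a group's animals close together. The groups lay apart, which is the difference the regions had been selected on. In sorted nuclei measured in bulk, fewer nuclei of a type and less accessibility per nucleus cannot be told apart. Control 2, the animal with the fewest reads in listed bins, was the lowest of the 4 controls at 86 of the 190 higher members. The part of its low read total in that was not tested.

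**Figure D1:**
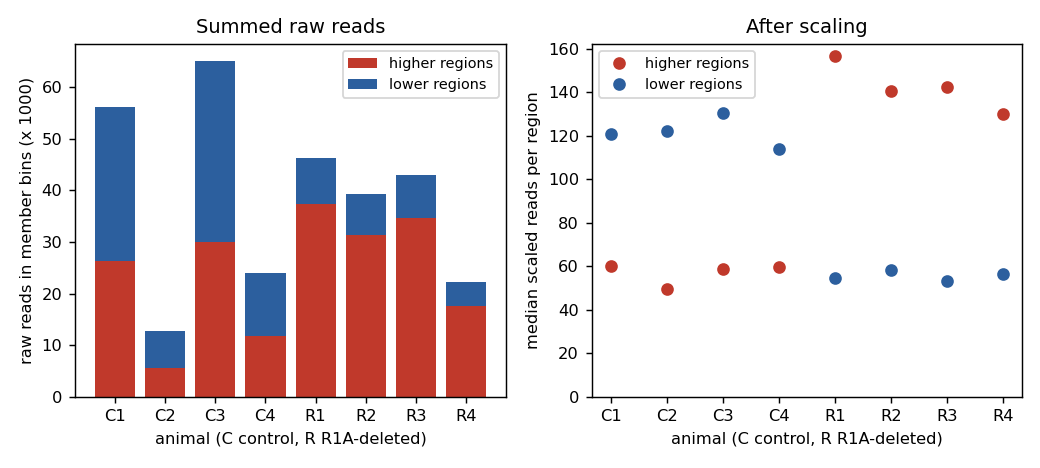
Left, raw reads summed over the 500 bp bins of the 300 widest regions, in units of 1000, for each animal (C control, R R1A-deleted), with higher regions in red and lower regions in blue. Right, the median scaled reads per region in each animal. Raw totals run from 12763 to 65073 and vary with each animal's reads in all listed bins, whereas after scaling the controls sit near 49.4 to 59.9 at higher regions and the R1A-deleted animals at 130 to 157.

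Of the 300 regions, 190 were higher and 110 lower in R1A-deleted animals in the authors' deposited table. The higher share of 63.3% (exact Clopper-Pearson 95% interval 57.6 to 68.8, which treats regions as independent) lay close to the 66.7% of all listed regions. Higher regions had a median width of 1750 bp and lower regions of 2000 bp. The share of higher regions was 70.2% among those of 1750 to 2250 bp, 53.2% of the 47 regions of 2500 to 3750 bp and 44.0% of the 25 regions of 4000 to 16000 bp, so the very widest stretches were 11 higher and 14 lower. It was 61.5% among the 2128 listed regions of 500 bp, the narrowest class. No test of these shares was made, since neighbouring regions are not independent.

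The edgeR fit over all 5327 regions, which repeats the contrast that chose them, called the 190 members higher, where 66.7% of all listed regions were called higher, and the 110 members lower, where 33.3% were. On that scale log2 changes are of R1A-deleted over control and are given with their standard errors below. With TMM factors edgeR called 130 members higher, where 18.5% of all listed regions were, and 110 lower, where 33.3% were, and the median shift of all log2 changes was -0.60. All 4 R1A-deleted animals lay above all 4 controls at 187 members, against 60.4% of all listed regions, and below them at 107 members, against 29.6%. The first count was 113 with TMM factors and 114 with median-ratio factors. Nothing is read from these counts. The 6 members whose groups overlapped were a pair of regions in Pam and 1 each at Hamp, Cebpb, Myo18b and Myl9. At both Pam regions control 4 was low, with 31.5 and 23.9 scaled reads, and at Hamp and Cebpb it was high, with 57.9 and 45.3.

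Typical higher members went from 56.8 scaled reads in controls to 146.5 in R1A-deleted animals, and typical lower members from 123.6 to 56.6 (medians over regions of the group means). The ratio of group means ranged from 1.53 to 12.4 among higher members, with 136 of 190 at or above 2-fold and 14 at or above 4-fold. Among lower members it ranged from 0.18 to 0.66, with 71 of 110 at or below 0.5. The authors' deposited table gave a median log2 change of 1.07 for higher and -0.94 for lower members, and a median size of 1.02 against 0.81 over all listed regions. Width and the size of the deposited log2 change had a Spearman rho of 0.31 over the 300 regions, 0.29 over the higher and 0.46 over the lower ones. Without the 10 widest it was 0.26. These are correlations across regions that share animals and were listed on the same contrast, and how the merging bears on them was not tested.

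**Figure D2:**
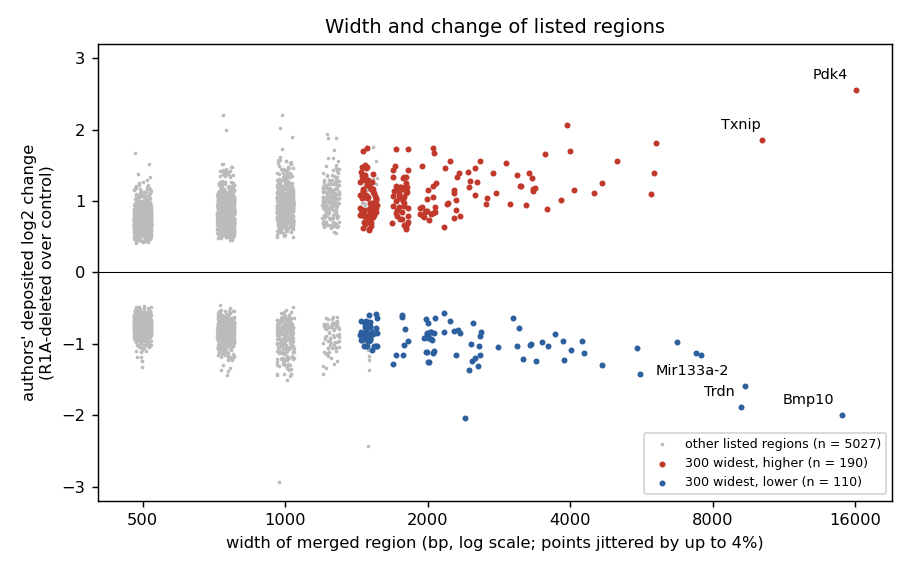
Width of each listed region in bp on a log axis against the authors' deposited log2 change, R1A-deleted over control, with the 300 widest in red (190 higher) and blue (110 lower) and the other 5027 in grey. The 5 widest regions, at Pdk4, Bmp10, Txnip, Trdn and beside Mir133a-2, stand at the right, 2 above and 3 below 0.

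The widest region of all covered Pdk4, which encodes the kinase that turns pyruvate dehydrogenase off and so spares glucose. It spanned 16000 bp (chr6:5479751-5495750), took in 95.9% of the gene, ran 3.6 kb past its 3′ end and stopped 0.528 kb short of the start site. Its bin held 59, 4, 43 and 14 reads in controls 1 to 4 and 438, 240, 244 and 70 in R1A-deleted animals 1 to 4. Every R1A-deleted animal was far above every control after scaling, although the R1A-deleted animals differed widely among themselves, animal 1 being the highest and animal 4 the lowest. The means were 19.6 ± 8.97 and 242 ± 109 scaled reads (SD, n = 4 each), a log2 change of 3.48 ± 0.27 (SE), the largest of the 300. A second region of 4000 bp lay 11.2 kb from the gene (chr6:5507501-5511500) and had a log2 change of 2.68 ± 0.26 (SE).

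Txnip lay wholly inside a region of 10500 bp (chr3:96554501-96565000), which reached 3.46 kb before its start and 3.14 kb past its end. The counted bin lay past the gene's end and held 102, 8, 88 and 24 reads in controls and 329, 160, 317 and 74 in R1A-deleted animals. Animals 1 and 3 of the R1A-deleted group were well above animals 2 and 4, and all were above the controls, with 36.0 ± 14.97 and 218 ± 89.6 scaled reads (SD, n = 4 each) and a log2 change of 2.47 ± 0.25 (SE). The next 3 listed regions along the chromosome were also members and also higher. They lay past the 3′ end of Polr3gl, across it and inside the gene, which encodes a subunit of RNA polymerase III. Their log2 changes were 2.08, 1.19 and 1.15, and the 4 regions together covered 80.9% of a stretch of 27.5 kb.

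Ucp2, a mitochondrial carrier gene, and its neighbour Dnajb13, a co-chaperone gene, were bridged by a region of 6250 bp (chr7:100499251-100505500) that overlapped the 3′ ends of both. Its counted bin, between the genes, held 111, 13, 97 and 27 reads in controls and 240, 189, 225 and 104 in R1A-deleted animals. The groups were far apart with little spread inside the R1A-deleted group, at 42.1 ± 12.7 against 196 ± 18.9 scaled reads (SD, n = 4 each) and a log2 change of 2.13 ± 0.18 (SE). A region of 5000 bp across the higher-coordinate end of Angptl4, whose product inhibits lipoprotein lipase (chr17:33777751-33782750), held 169, 38, 168 and 59 reads in controls and 328, 255, 367 and 135 in R1A-deleted animals, a log2 change of 1.76 ± 0.15 (SE). Pnpla2, the triglyceride lipase gene, was covered over 81.0% of its length by a region of 4500 bp that went from 146 ± 20.5 to 329 ± 46.7 scaled reads. Lipe, the hormone-sensitive lipase gene, held a region of 3250 bp that went from 32.3 ± 7.22 to 91.4 ± 17.9 (SD, n = 4 each).

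Of 42 genes in the list of fatty acid and glucose metabolism, 8 were overlapped by members, through 10 regions, all of them higher. Pnpla2 and Lipe are not in that list. The metabolism list and the other heart gene lists below were drawn up with results of these data known. Their directions are description only, beside 63.3% higher over all members. Besides Pdk4, Txnip, Ucp2 and Angptl4, the 8 were the fatty acid carrier gene Slc27a1 (1.56), the acyl-CoA synthetase gene Acsl1 (0.75), and Cpt1a and Cpt2, which encode the carnitine palmitoyltransferases of mitochondrial fatty acid import. The values in brackets and those that follow are log2 changes. Cpt1a had 2 regions, at 0.86 and 1.73, and Cpt2 had 1, at 1.79. With TMM the Acsl1 region (0.16) and the first Cpt1a region (0.26) were not called by edgeR. The median over the 10 regions was 1.75, against 1.23 over all higher members, which include these 10. Nothing is read from this comparison, since the list was drawn up with results known. Among the other listed regions the same list had 31 higher and 11 lower.

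The list of glucocorticoid receptor targets, drawn up in the same way, also had members of a single direction. Of 21 list genes, 7 were overlapped by 9 members, all higher, and the other listed regions of the list were also all higher, 24 of them. Zbtb16, a zinc finger gene, had a region of 6000 bp across its lower-coordinate end (chr9:48646251-48652250) with 115, 30, 118 and 44 reads in controls and 177, 155, 184 and 125 in R1A-deleted animals. The counted bin lay outside the gene. The groups did not overlap after scaling, with 60.4 ± 7.26 against 173 ± 25.4 scaled reads (SD, n = 4 each) and a log2 change of 1.53 ± 0.17 (SE). Mt2, a metallothionein gene, lay whole inside a region of 3250 bp that went from 23.5 ± 4.36 to 69.7 ± 9.24, and a region of 4000 bp at the 3′ end of its neighbour Mt1 went from 37.4 ± 7.59 to 88.1 ± 10.9. The counted bin of the Mt1 region lay past that gene's end. Both metallothioneins bind zinc and other metals.

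Fkbp5, a co-chaperone of steroid receptors, had 1 member inside the gene, with a log2 change of 1.34, and 1 across its start site, with 0.74, which was not called with TMM (0.14). Beyond its start, 3 further members lay 26.1 to 35.9 kb away, where Armc12 is the nearest gene. The one with the largest change of these (chr17:28512251-28513750) held 55, 10, 96 and 24 reads in controls and 307, 206, 105 and 78 in R1A-deleted animals. R1A-deleted animal 3 was the lowest of its group and still above every control, with group means of 31.9 ± 9.06 and 176 ± 76.3 (SD, n = 4 each) and a log2 change of 2.39 ± 0.25 (SE). The other members of the list were at Cdkn1a (1.01), which encodes a cell cycle inhibitor, and at Pdk4 and Angptl4, which stand in both lists. Of the circadian clock list, 1 gene had a member, Ciart, a repressor of the clock, with a log2 change of 1.13.

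**Figure D3:**
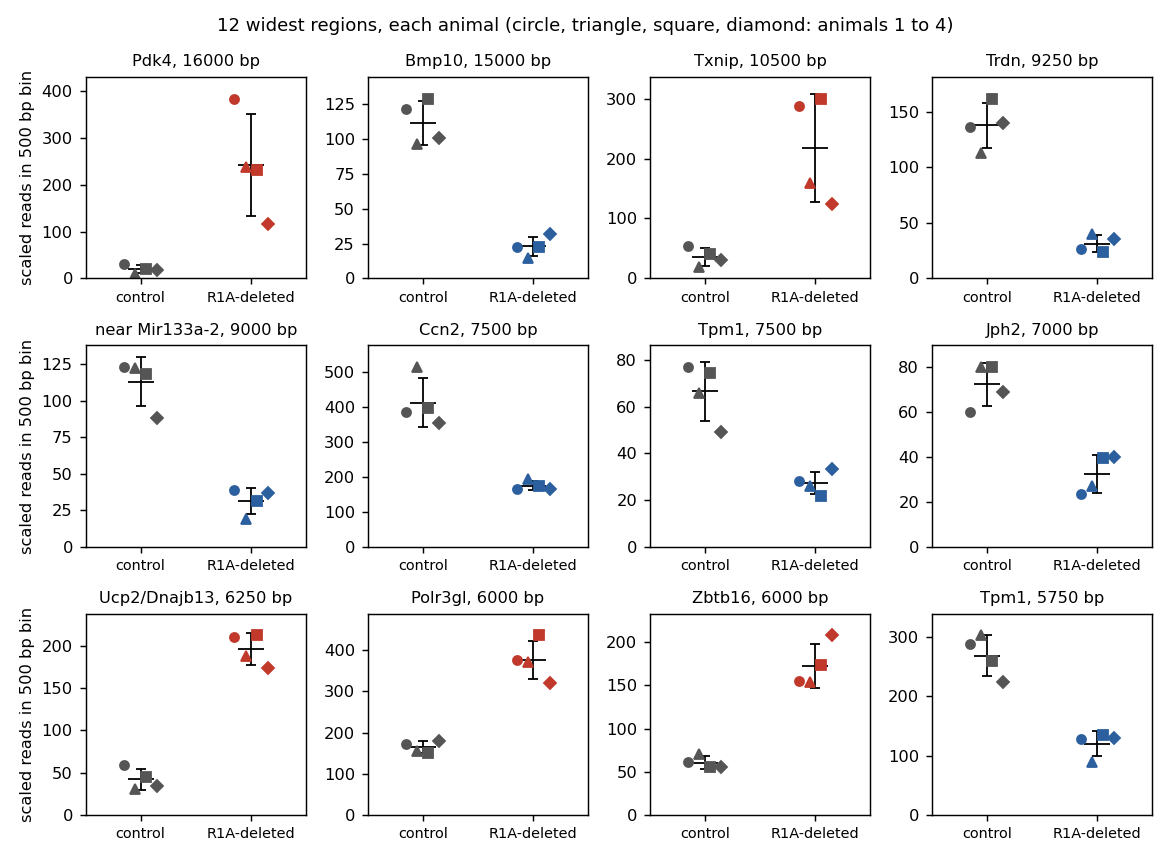
Scaled reads in the 500 bp bin of each of the 12 widest regions, 1 panel per region, with each animal as a point (circle, triangle, square and diamond for animals 1 to 4) and the mean ± SD of the 4 animals as bars. Axes start at 0 and differ between panels. In all 12 panels the 4 R1A-deleted animals lie wholly above (red) or wholly below (blue) the 4 controls, and the R1A-deleted spread is widest at Pdk4 and Txnip.

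Among lower members the widest covered Bmp10, a growth factor of the TGF-beta family made by atrial myocytes. The region spanned 15000 bp (chr6:87427501-87442500), held the whole gene of 5.52 kb and ran 7.99 kb past its end. The counted bin lay past the gene's end and held 230, 41, 277 and 80 reads in controls and 26, 15, 24 and 19 in R1A-deleted animals. Every R1A-deleted animal had fewer raw reads than any control, and the means were 112 ± 15.8 and 23.0 ± 6.85 scaled reads (SD, n = 4 each), a log2 change of -2.35 ± 0.22 (SE). A pair of further members lay 4.99 and 9.24 kb before the gene. The farther one (chr6:87417251-87419750) had the lowest log2 change of the 300, -2.43 ± 0.22 (SE), with 232, 80, 249 and 85 reads in controls and 23, 26, 28 and 14 in R1A-deleted animals, and the 3 regions together covered 82.2% of 25.25 kb.

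The atrial program list had 11 members over 6 of its 17 genes, of which 10 were lower. They lay at Bmp10, at Pam with 5, at Myl4 with a pair and at Nppa and Nppb with 1 each. Pam encodes the enzyme that amidates peptide hormones, Myl4 the atrial essential light chain, and Nppa and Nppb the natriuretic peptides. The Myl4 region of 3750 bp went from 154 ± 51.2 to 84.0 ± 6.77 scaled reads, with controls 2 and 4 below the others, and that at Nppa from 282 ± 12.3 to 167 ± 17.8 (SD, n = 4 each). The higher exception was Stard10, a lipid transfer protein gene, with a log2 change of 1.35 ± 0.20 (SE). Outside the members, listed regions of the atrial list were 6 higher and 41 lower.

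The list of calcium handling genes, also drawn up with results of these data known, had only lower members. Of 18 list genes, 5 were overlapped by 11 members, all lower. Their median log2 change was -1.19, against -1.08 over all lower members, which include them. Other listed regions of the list were 25 higher and 69 lower. Trdn encodes triadin, which anchors calsequestrin to the calcium release channel. Its region spanned 9250 bp inside the gene (chr10:33199751-33209000) and held 258, 48, 347 and 111 reads in controls and 30, 40, 25 and 21 in R1A-deleted animals. All R1A-deleted animals were low whatever their total of reads in listed bins, with means of 138 ± 20.0 and 31.2 ± 7.50 scaled reads (SD, n = 4 each) and a log2 change of -2.18 ± 0.20 (SE).

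Jph2 encodes junctophilin, which holds the sarcoplasmic reticulum close to the surface membrane, and 4 members overlapped it. The widest, of 7000 bp (chr2:163331501-163338500), straddled the 3′ end. Its counted bin, past that end, held 114, 34, 172 and 55 reads in controls and 27, 27, 42 and 24 in R1A-deleted animals. This region adjoined another lower member, and the pair covered 97.4% of 9.75 kb. The log2 changes at Jph2 were -1.16, -1.36, -1.20 and -1.86 from the widest to the narrowest. Next came Atp2a2, the calcium pump of the reticulum, with 2 members inside it, 1 across its lower-coordinate end and 1 at 1.26 kb, from -1.05 to -0.67, and Pln, which encodes the pump's inhibitor phospholamban. Pln lies within the larger gene Cep85l, and a region of 4000 bp across its 3′ end (chr10:53343251-53347250) went from 230 ± 28.7 to 98.9 ± 18.5 scaled reads (SD, n = 4 each). The counted bin of that region lay past the end of Pln, inside Cep85l. The remaining gene was Cacna1c, the pore subunit of the L-type calcium channel, with 1 member at -1.19. Its 12 listed regions went both ways, 7 higher and 5 lower.

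Some wide lower regions lay far from protein-coding genes but beside microRNA genes. The region of rank 5, 9000 bp wide (chr2:180398751-180407750), was 48.5 kb from Slco4a1, its nearest protein-coding gene, and 0.269 kb from Mir133a-2. It held 233, 52, 253 and 70 reads in controls and 44, 19, 33 and 22 in R1A-deleted animals, a log2 change of -1.86 ± 0.22 (SE). A region of 4750 bp (chr2:180391001-180395750) lay between Mir1a-1, at 1.88 kb, and Mir133a-2, at 2.63 kb, and held 680, 91, 642 and 168 reads in controls and 140, 104, 87 and 60 in R1A-deleted animals, a log2 change of -1.43. The microRNAs miR-1 and miR-133 are made from shared transcripts in striated muscle. Their other locus showed the same direction: a region of 4250 bp inside Mib1 (chr18:10778501-10782750), 0.159 kb from Mir133a-1 and 2.73 kb from Mir1a-2, went from 111 ± 19.9 to 46.5 ± 14.9 scaled reads (SD, n = 4 each), a log2 change of -1.30. A pair of lower members whose nearest protein-coding gene was Il17b lay on either side of Mir145a and Mir143, at 0.825 to 4.11 kb, with log2 changes of -1.05 and -0.94, and these microRNAs are known from smooth muscle.

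Another lower region with no gene in it, of 5750 bp (chr11:65334001-65339750), lay 64.0 kb from Myocd, which encodes the serum response factor coactivator myocardin. It held 94, 17, 196 and 37 reads in controls and 16, 22, 19 and 4 in R1A-deleted animals. Control 3 was the highest by far and R1A-deleted animal 4 the lowest, the groups did not overlap, and the log2 change was -1.91 ± 0.30 (SE). No member overlapped a gene of the cardiac transcription factor list, which had 21 other listed regions.

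Sarcomere genes went both ways, by gene. Of the 19 members that overlapped genes of this list, 13 were higher, 12 of them in Myo18b and 1 at Tcap, and 6 were lower, at Tpm1, Myl4 and Ankrd1. Other listed regions of the sarcomere list were 56 higher and 32 lower. At Tpm1 3 lower members covered 78.75% of 20 kb. The widest, of 7500 bp inside the gene (chr9:67030001-67037500), held 146, 28, 160 and 39 reads in controls and 32, 26, 23 and 20 in R1A-deleted animals. The one across the start site (chr9:67044251-67050000) takes in the promoter printed above, but its counted bin does not touch that window. This bin, 2750 bp from the region's lower-coordinate end, held 546, 129, 559 and 178 against 146, 90, 142 and 78. Their log2 changes were -1.34 ± 0.23 and -1.16 ± 0.15 (SE), and that of the narrower region between them was -1.62 ± 0.24. At Tcap, which encodes the titin cap protein of the Z-disc, a region of 2000 bp went from 206 ± 67.8 to 394 ± 75.8 scaled reads (SD, n = 4 each), and it was not called with TMM (0.38).

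Myo18b, which encodes an unconventional myosin of striated muscle, had 13 members, more than any other gene, 12 inside it and 1 at 0.126 kb, all higher. Of them, 10 followed each other at gaps of at most 10 kb over 51.5 kb and covered 45.6% of it. Control levels were low at 12 of the 13, from 8.06 to 24.6 scaled reads, and reached 102 ± 8.43 at the other (chr5:112714501-112717250), which had the smallest log2 change, 1.03 ± 0.14 (SE). The largest, 2.51 ± 0.34 (SE), was at chr5:112734751-112736750, with 21, 3, 14 and 6 reads in controls and 70, 55, 40 and 21 in R1A-deleted animals. Tacc2, which encodes a centrosomal coiled-coil protein, had 5 members, all higher, from 1.11 to 1.89. With TMM factors a region of Myo18b (chr5:112784751-112786500) and one of Tacc2 (chr7:130755251-130758500) were no longer called by edgeR, at 0.63 and 0.51.

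Of 26 genes in the stress and immediate early list, 6 were overlapped by 6 members, all lower. The other listed regions of this list were 0 higher and 6 lower. Ccn2, which encodes a secreted matrix protein induced by TGF-beta, lay whole inside a region of 7500 bp (chr10:24593001-24600500). Reads were 729, 219, 850 and 281 in controls and 188, 195, 185 and 99 in R1A-deleted animals. Control levels were the highest of the 300, with control 2 above the other controls after scaling, and the means were 412 ± 70.8 and 175 ± 13.7 scaled reads (SD, n = 4 each), a log2 change of -1.22 ± 0.13 (SE). The heat shock genes Hspa8, Hspa1b and Hspa1a had 1 region each, at -1.06, -1.12 and -0.94, and a region at Ankrd1, a stretch-responsive ankyrin repeat gene, went from 172 ± 31.8 to 86.6 ± 7.75 scaled reads (SD, n = 4 each). Gja1, which encodes connexin 43, had a pair of lower members at -1.17 and -0.91. Fgf12, a modulator of sodium channels, had 1 lower member at -1.23. They were the only members of the ion channel and conduction list, whose other listed regions were 20 higher and 12 lower.

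**Figure D4:**
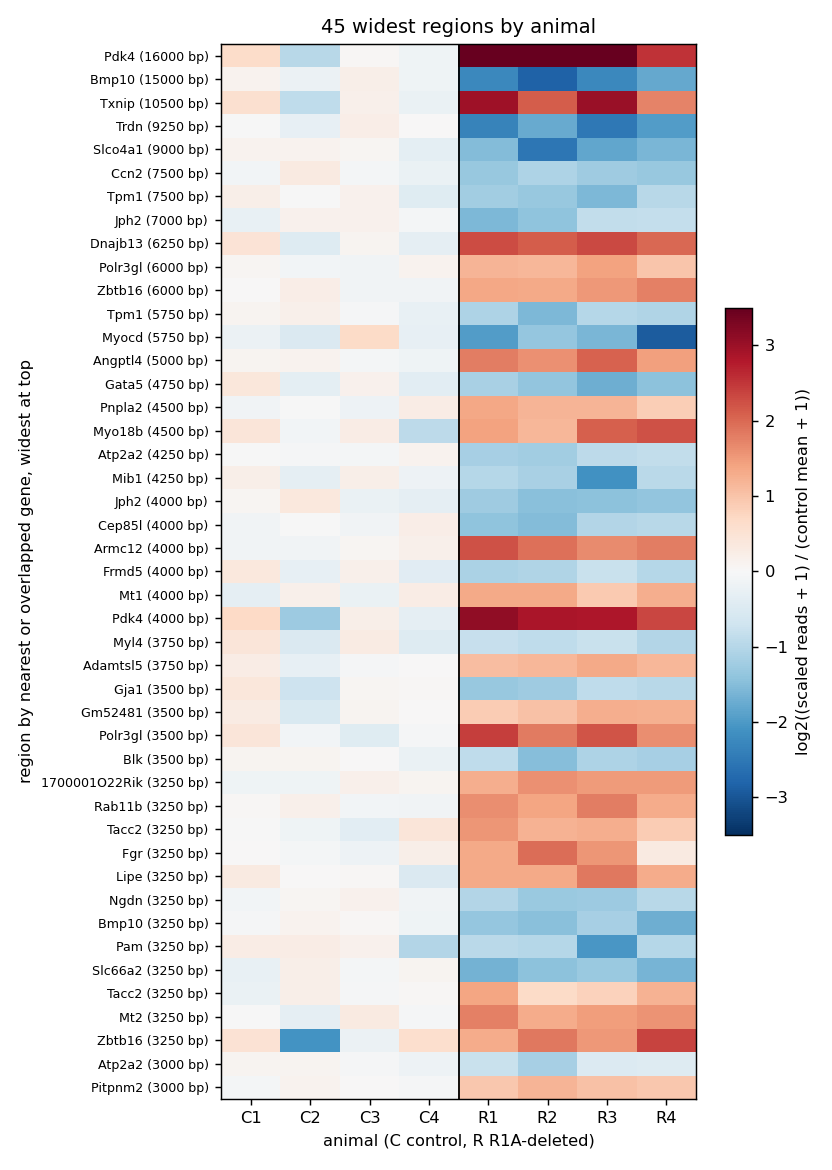
The 45 widest regions (rows, widest at the top, named by the gene they overlap or the nearest one) in each animal (C control, R R1A-deleted). Colour gives log2 of scaled reads plus 1 over the control mean plus 1, red for higher and blue for lower. Rows are of a single colour across the 4 R1A-deleted animals, and among controls the darkest cell is that of control 2, the animal with the fewest reads in listed bins, at the narrower Zbtb16 region.

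Wide regions had wide or narrow listed regions as neighbours. The nearest other listed region lay at a median of 3 kb from a member, against 48.5 kb for the other regions, and it was within 10 kb for 184 members (61.3%), in every case with the same direction. Of the other listed regions 28.9% had one within 10 kb, and 97.4% of those had the same direction. Members fell into 35 runs with gaps of at most 10 kb, which held 92 members, and each run had a single direction. A further run was of 4 lower regions between Myh7, the slow myosin heavy chain gene, and Ngdn, over 10.5 kb at 85.7% coverage. The single direction within a run was not tested, since neighbouring regions share animals and were listed on the contrast itself.

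**Figure D5:**
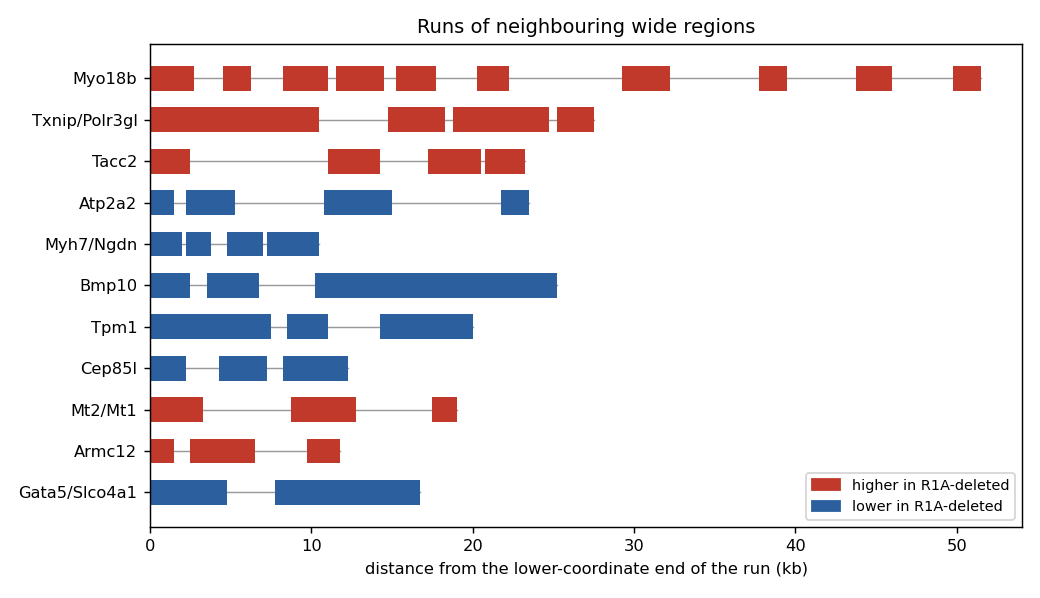
11 of the 12 runs with the most members, drawn to scale as distance in kb from the lower-coordinate end of the run, with member regions as blocks (red higher, blue lower in R1A-deleted animals) and grey lines joining them. Each run has 1 colour, the Myo18b run is the longest at 51.5 kb with 10 members, and a single region makes up most of the Bmp10 run.

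The 300 regions were assigned to 236 genes, as overlapped or nearest, and 35 genes had more than 1 member. Of those 35, 17 had only higher members, 17 only lower ones and 1, Prep, had both. A protein-coding gene was overlapped by 208 regions (69.3%, against 61.2% of the other listed regions), and 172 lay wholly inside a gene. Only 4 held a whole gene, those of Bmp10, Txnip, Ccn2 and Mt2, and no other listed region did. The promoter window was touched by 29 regions (9.67%, against 5.09% of the others), but by the counted bin in only 10 (3.33%, against 4.44%). Promoter windows were not available for every gene, Ccn2 being 1 without, so these counts can miss promoters. A wider region touches more features by its width alone, and the part of width in these shares was not tested. Of the 92 regions outside genes, 38 lay within 10 kb of one and 24 over 50 kb away, the farthest at 304 kb from Myc.

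Some further positions bear on how the list can be used. Neither listed region beside Prrx1 was a member: the wider one, of 1500 bp and 311 reads, fell short on the tie rule. No member lay on the X chromosome, which had 70 listed regions. One member lay on the Y chromosome (chrY:90738751-90742250), with 113, 14, 111 and 39 reads in controls and 104, 100, 124 and 69 in R1A-deleted animals. All 12 listed Y regions were higher, and all were assigned to the same gene, Gm52481. Every animal had reads at the Y member, and how the sexes were divided between the groups was not tested. At the limit of the choice, 146 listed regions were 1500 bp wide, of which 114 were taken. The last taken, nearest to Dph5 and Myc, had log2 changes of -1.14 and 1.84, and the first left out, in Usp29 and Baiap2, with 451 and 450 reads, had -1.52 and 1.26.

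No member overlapped a gene of any of the 7 lists of markers of other cell types (fibroblasts, endothelium and endocardium, smooth muscle and pericytes, immune cells, epicardium, adipocytes, and neurons and glia). The other listed regions overlapped genes of these lists 14 times in all, from 0 for epicardial and neural markers to 5 for smooth muscle. Listed regions are those that differed, so this says nothing of the accessibility of those genes, and the share of other nuclei in the sorted samples was not tested. Regions at Nppa, Myl4 and Tpm1 carried reads in both groups, which does not measure the share of cardiomyocyte nuclei. The lists of heart genes had been drawn up with results of these data known, and the member regions of a gene are neighbours that share animals and sequence, so the counts above are of regions and not of independent events.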

How the data were processed

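ATAC-seq libraries of sorted atrial nuclei were compared between 4 control and 4 R1A-deleted animals. Coordinates are those of mm10, and the tools named are BWA, bedtools and DESeq2 with no version, per the submitters' processing notes. By its header, the deposited table gives for each merged region a bin of 500 bp, the read counts of that bin in 10 libraries, a log2 fold change, an adjusted p-value and a group signal, the geometric mean. The deposited counts were handled as estimated counts, because 17 cells, 2 of them in member regions, hold 0.1, and these were rounded to 0. The authors' log2 fold change has R1A-deleted in the denominator and was reversed in sign. The authors' deposited p-value column is an adjusted p-value, and the deposited group signal served only to set the scale. For the merging of bins, the shift for transposase cuts and the handling of duplicates, the method is not given in the sources used here.

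Start coordinates were raised by 1 base. Counts of repeat libraries were summed per animal. Those of an animal differed by 1.59 to 1.70 chi-square per degree of freedom over the member bins, above sampling noise, and libraries of different animals by 2.34 to 4.02. Library factors were median ratios within a group, and the groups were set 0.142 log2 apart, the value that a regression (slope 0.874) of the deposited log2 fold changes on the deposited geometric means gave for the 1432 regions whose group means both reached 50. On this scale edgeR 4.0.16 (glmQLFit and glmQLFTest, R 4.3.3) was fitted to all 5327 regions with Benjamini-Hochberg adjustment at 0.05, and tested on simulated data. Because the listed regions had been selected on this contrast, no p-value is given. The interval on the share of higher regions covers the counting of regions only, whereas the SDs and standard errors include variation between animals. The labels mention no molecular identifiers. Alternatives were TMM factors, total reads, median-ratio factors, DESeq2 1.42.0, filterByExpr, the replicate block, single repeat libraries and leaving out each animal.

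Genes, strands and promoters came from RefSeq tables of GRCm38.p6, the coordinates of mm10. These tables hold no exons, which leaves exon and intron unassigned, and a strand was found for 160 of the 208 regions that overlap a gene. The rule for named regions took the widest, the most changed, the highest in controls, genes with at least 3 members, members of gene lists, whole genes and the edge of the choice. The regions at Mib1, Il17b, Pnpla2, Lipe, Mt2, Fkbp5, Cdkn1a, Slc27a1, Acsl1, Cpt1a, Cpt2, Cacna1c, Nppa, Stard10, Ankrd1, Hspa1a, Tcap, Hamp, Cebpb and Myl9, the second one at Pdk4 and that on the Y chromosome fall outside it and were chosen after their values were seen. The members and the gene lists were chosen with earlier results of these data known. 1 run of neighbouring regions is not reported here.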

Additional observations from a re-analysis of the deposited data

Results flagged for a closer look

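Among the regions named by the rule, 168 groups of 4 animals were examined for an animal far from the other 3, and 13 values stood out, where chance gives about 1 in 20 groups. All values are scaled reads. In controls, animal 4 stood apart at the region beside Mir133a-2 nearest to Slco4a1 (88.1), at 2 Pam regions (31.5 and 23.9) and at the Myh7 region (406), and animal 3 at the narrowest Jph2 region (57.3).

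In R1A-deleted animals, animal 1 stood apart at the regions of Myo18b (52.6), Nppb (175) and Pitpnm2 (108), animal 2 at those of Tpm1 (89.4) and Akap6 (38.8), and animal 3 at those of Mt1 (71.9), Pam (15.1) and Pitpnm2 (270.5). The groups overlapped at the 2 Pam regions with a low control 4 and at the Myo18b region. No cause was tested.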

How the results depend on the processing

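Another library scale moved the sizes. TMM factors shifted all log2 changes by -0.60, median-ratio factors also by -0.60 and total reads by -0.40. The median log2 change of higher members was then 0.63 with TMM, 0.63 with median ratios and 0.83 with total reads, and that of lower members -1.68, -1.68 and -1.48. Higher members whose groups did not overlap numbered 113 with TMM and 114 with median ratios. Member calls were 130 higher and 110 lower with TMM, 128 and 110 with median ratios, and 183 and 110 with total reads. Of all listed regions 18.5% were called higher with TMM or median ratios and 47.0% with total reads. No member changed sign on any scale. Among the 84 regions named by the rule, 2 lost their edgeR call with TMM and with median ratios, those of Tacc2 and Myo18b given above. Of 27 regions named outside it, 5 lost their call with TMM, those at Acsl1, Tcap and Cebpb and 1 each at Cpt1a and Fkbp5, and with median ratios also that at Hamp.

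With the replicate block the calls were 190 and 110. Deviations of same-numbered animals had correlations of 0.26, 0.04, -0.04 and -0.0008, and those of unlike-numbered animals ran from -0.15 to 0.08. Each compares a single animal of each group, so they cannot decide whether the numbers pair the animals. DESeq2's Wald test, filterByExpr and the first repeat library gave 190 and 110 too. Leaving out each animal gave 190 and 110, with 187 to 189 higher and 107 to 110 lower members whose groups did not overlap and medians from 1.19 to 1.26 and from -1.11 to -1.07. The share of higher regions was 64.2% over all 332 regions of at least 1500 bp and 58.0% over the 150 widest. By the bin alone 192 regions overlapped a protein-coding gene, and 232 regions overlapped any annotated gene. Gaps of up to 25 kb, an alternative chosen after seeing the data, gave 38 runs. Counts of 500 bp limit the precision at low regions, such as Myo18b in control 2, which held 0 to 12 reads at 12 of the 13 regions.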
